A study of Mus musculus with 9 samples.

Results

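Oxidative phosphorylation was followed through 95 genes with names of subunits of the 5 complexes of the respiratory chain, among 13116 genes measured in mouse quadriceps muscle. Not every one is a subunit: Atp5s is not counted as one, and it stays in the 95 and in complex V. The members were taken by gene name and by no measured value: the Nduf genes without the Ndufaf assembly factors, Sdha to Sdhd, the Uqcr genes, Cyc1, the Cox4 to Cox8 genes, the Atp5 genes, and the mt-Nd, mt-Co, mt-Cytb and mt-Atp genes. The nuclear genome carries 82 of them, with 36 in complex I, 4 in complex II, 9 in complex III, 17 in complex IV and 16 in complex V. The mitochondrial genome carries the other 13, with 7 in complex I, 1 in complex III, 3 in complex IV and 2 in complex V. All 95 passed the filter on low values, which kept 13089 genes with a signal of at least 1 in at least 3 libraries.

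The 9 libraries came from poly(A) RNA of male mice that were 18 months old, 3 libraries in each group. KO_secGAA libraries came from Gaa knockout mice that had received the vector AAV8-sp7-delta8-hGAAco, which expresses secGAA, a secretable acid alpha-glucosidase. KO_PBS libraries came from Gaa knockout mice injected with PBS, and WT_PBS libraries from wild-type mice injected with PBS. The injection went into a tail vein when the mice were 9 months old, and 9 months passed before the muscle was collected. The title of the study places the expression of the vector in the liver, and no promoter is named in the labels. Gaa encodes the lysosomal enzyme that breaks glycogen down, and its loss causes Pompe disease. The labels do not say that each library is a mouse of its own, so the p-values measure the spread between these libraries, which may be technical.

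Complex I (NADH dehydrogenase) and complex II (succinate dehydrogenase) pass electrons to coenzyme Q, complex III passes them to cytochrome c, and complex IV (cytochrome oxidase) passes them to oxygen. The proton gradient that complexes I, III and IV build drives complex V, the ATP synthase. Except for complex II, each complex joins subunits made in the mitochondrion with subunits made in the cytosol and imported, so both genomes contribute to the same machine. In muscle the chain is most abundant in oxidative fibres.

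Signal below is the deposited value of a gene in a library, that is, its reads after the authors' scaling of library size, and each library held between 9299156 and 15957106 reads. A count of 3 reads, taken as the floor of detection, was worth a signal of 0.196 to 0.276. Gaa, the knocked-out gene, had a signal of 15.1, 15.6 and 16.6 in the KO_secGAA libraries, 17.8, 14.5 and 14.0 in the KO_PBS libraries, and 296, 129 and 264 in the WT_PBS libraries, in the order in which they were numbered (by accession, as a name only). Its level fitted the genotype labels of all 9 libraries. The 11 skeletal muscle markers were all detected, with a summed signal of 133368 to 146525 in KO_secGAA, 113565 to 125060 in KO_PBS and 148759 to 175592 in WT_PBS. Many members shifted together within a library. WT_PBS 1 was the lowest of the 3 WT_PBS libraries in 76 of 82 nuclear and 13 of 13 mitochondrial members. WT_PBS 2 was the highest in 75 nuclear members. KO_PBS 3 was the lowest of its group in 72 nuclear members, and KO_secGAA 1 in 64. The counts of members that passed are also given with single libraries left out.

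Copies of mitochondrial DNA in the nuclear genome bear on these genes, because the reads were 61 bases long. A run of such copies lies on the minus strand of chromosome 1, and the table gives signal to 5 of them: Gm28438 (a copy of mt-Nd3), Gm29216 (mt-Co1), Gm28661 (mt-Co2), Gm28437 (mt-Co3) and Gm10925 (mt-Atp6). Other copies are not in the table, so any reads given to them are not seen here. mt-Nd4l shares 98.7% of its 61-base windows with Gm10222, and mt-Nd4 shares 61.9% with Gm28439, both on chromosome 1. mt-Co1 shares 21.5% with Gm13340 on chromosome 2. The first 61 bases of mt-Nd3 and of its copy are shown because they hold the only base that differs among the 345 compared, T3C, counted from 1 at the 5′ end of mt-Nd3. That base is in capitals. They lie at chrM:9459-9519 on the plus strand and chr1:24613059-24613119 on the minus strand of GRCm38.
mt-Nd3: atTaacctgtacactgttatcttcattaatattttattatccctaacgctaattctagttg
Gm28438: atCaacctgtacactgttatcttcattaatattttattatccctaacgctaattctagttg
Gm28661, Gm28437 and Gm10925 matched mt-Co2, mt-Co3 and mt-Atp6 at every one of 681, 783 and 678 bases compared. A read of this length from mt-Atp6 therefore fits its copy equally well over 99.5% of its possible starts, and the split between gene and copy rests on the counting, not on sequence. mt-Atp8 and mt-Atp6 also overlap each other. The last 43 bases of mt-Atp8 are the first 43 of mt-Atp6, in capitals within chrM:7912-7984 on the plus strand.
mt-Atp8/mt-Atp6: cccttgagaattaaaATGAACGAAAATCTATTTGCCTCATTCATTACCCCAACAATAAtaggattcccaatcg

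In poly(A) RNA of untreated knockout muscle, the signal of the mitochondrially encoded subunits was 1.61 to 2.03 times lower than in wild-type muscle. Of the 13, 12 fell in KO_PBS against WT_PBS and mt-Atp6 did not pass. The 12 became 7 without the authors' scaling factors (3.96% of all genes fell) and 3 with quantile normalization (share not given). Over all genes tested, 21.9% changed, with 11.0% fallen and 10.9% risen (limma on log2 of signal + 0.5 with Benjamini-Hochberg adjustment, adjusted p under 0.05). The median log2 fold change of the 13 was -0.86, against 0.01 for all genes tested, and it was -0.54 without the scaling factors and -0.26 with quantile normalization. The KO_PBS libraries lay below the WT_PBS libraries without overlap in 12 of 13, where 19.0% of all genes did so. In bulk muscle, fewer mitochondria-rich cells and less RNA per cell cannot be told apart.

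The 7 mitochondrial genes of complex I encode subunits of its membrane arm, which pumps protons. mt-Nd2 had the largest change, with a signal of 5348, 6367 and 5322 in KO_PBS and 9445, 13120 and 12191 in WT_PBS. All 3 KO_PBS values were under the lowest WT_PBS value, and the log2 fold change was -1.02 ± 0.16 (SE, n = 3 each, limma adjusted p = 0.0022). mt-Nd6, the only member read from the other strand of the mitochondrial genome, had 1678, 1878 and 1454 in KO_PBS and 2796, 2989 and 3289 in WT_PBS. Its log2 fold change of -0.86 ± 0.12 had the smallest adjusted p of all members, 0.00108 (limma, n = 3 each). Whether reads were counted by strand is not given in the sources used here, and mt-Nd6 overlaps mt-Nd5 by 14 bases, so reads from its antisense strand cannot be told apart from its own. mt-Nd1, mt-Nd3, mt-Nd4, mt-Nd4l and mt-Nd5 fell by 0.76 to 0.95 on the log2 scale.

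mt-Cytb, the cytochrome b of complex III, had 11256, 12013 and 9966 in KO_PBS, against 14745, 20169 and 20210 in WT_PBS. Its log2 fold change was -0.72 ± 0.18 (SE, n = 3 each, limma adjusted p = 0.0182). Per kilobase of transcript, mt-Co1 and mt-Co2, catalytic subunits of complex IV, had the highest signal in each group as the table counts them. mt-Co1 averaged a signal per kilobase of 20137 in KO_secGAA, 15927 in KO_PBS and 25819 in WT_PBS, and mt-Co2 averaged 18198, 14918 and 27888 in the same groups. This order depends on how reads are split with the copies. With the copy of each gene added, the WT_PBS signal per kilobase averaged 38715 for mt-Co2 and 34062 for mt-Co3. For mt-Atp6 it averaged 31925 and for mt-Co1 31550. On that joint signal mt-Co2 was the highest in every group. mt-Co1, mt-Co2 and mt-Co3 fell by 0.69, 0.86 and 0.94 on the log2 scale. In complex V, mt-Atp8, a small subunit of the membrane sector, had 1410, 1605 and 1463 in KO_PBS and 2115, 2991 and 2910 in WT_PBS, a log2 fold change of -0.82 (limma adjusted p = 0.00323). WT_PBS 1 was the lowest wild-type library for each of these genes, and the 3 KO_PBS libraries still lay below it.

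**Figure D1:**
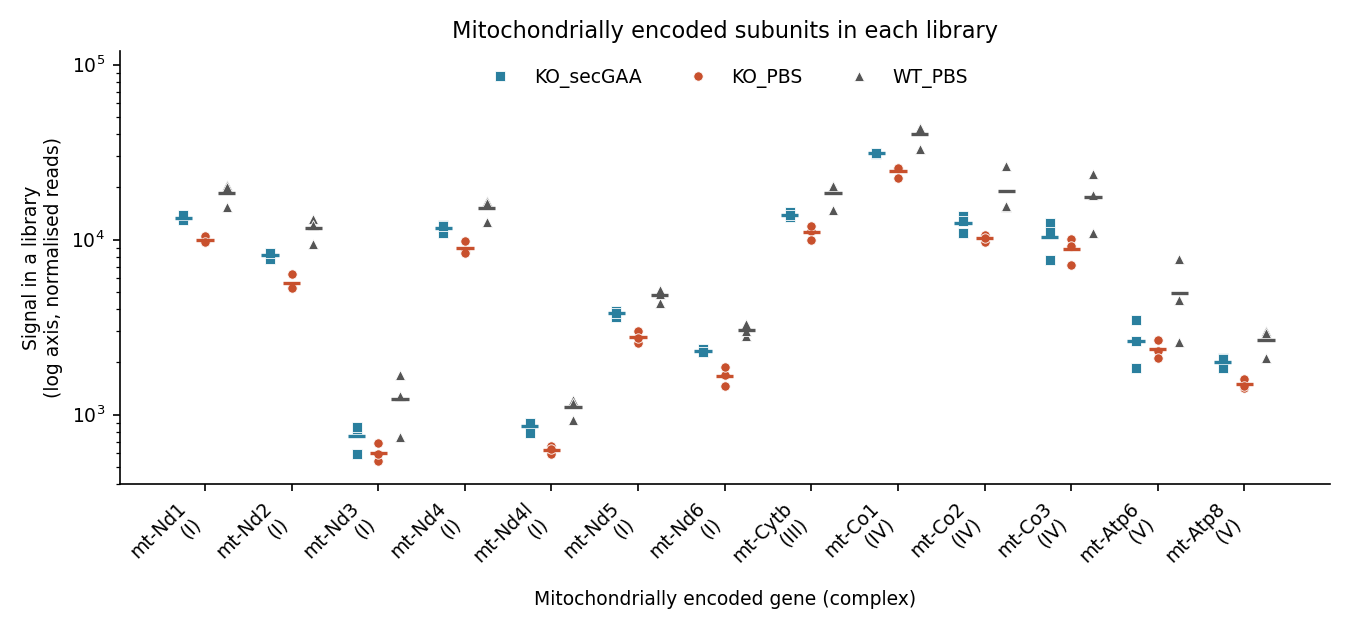
Signal (log axis) of the 13 mitochondrially encoded genes in each library, with KO_secGAA as squares, KO_PBS as circles, WT_PBS as triangles and group means as bars (n = 3 each). KO_PBS lay below WT_PBS without overlap for every gene other than mt-Atp6, and mt-Co1 was the highest in all 3 groups.

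Among genes with a counted copy, the spread within WT_PBS was wide for all but mt-Co1. In WT_PBS the coefficient of variation was 33.0% to 52.2% for mt-Nd3, mt-Co2, mt-Co3 and mt-Atp6 and 14.9% for mt-Co1. mt-Atp6, the channel subunit of ATP synthase, had a signal of 2644, 3449 and 1856 in KO_secGAA, 2651, 2316 and 2107 in KO_PBS, and 2605, 7710 and 4516 in WT_PBS. WT_PBS 1 was below KO_PBS 1, so these groups overlapped. Gm10925 held 77.7% to 88.9% of the joint signal of gene and copy in KO_secGAA, 78.5% to 82.3% in KO_PBS and 68.4% to 84.7% in WT_PBS. With the copy added, mt-Atp6 reached 16372, 15469 and 16648 in KO_secGAA, 12356, 13051 and 11315 in KO_PBS, and 16986, 24383 and 23853 in WT_PBS. On that joint signal no group overlapped another.

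Adding the copies narrowed the spread for most of them. The coefficient of variation of mt-Atp6 was 3.81% in KO_secGAA, 7.14% in KO_PBS and 19.0% in WT_PBS with Gm10925 added, and 30.1%, 11.7% and 52.2% in the same groups without it. For mt-Co3 it was 3.22%, 11.0% and 20.6% with Gm28437 added, and 23.7%, 16.9% and 36.2% without. mt-Co2 became less variable in KO_secGAA and WT_PBS, and in KO_PBS its coefficient was 9.97% with Gm28661 added and 4.30% without. For mt-Co1, whose copy covers 28.2% of its windows, it was 1.61%, 9.30% and 16.3% with Gm29216 added, and 0.471%, 7.12% and 14.9% without. With copies added, mt-Atp6 also passed in KO_PBS against WT_PBS, at a log2 fold change of -0.81 ± 0.18 (SE, n = 3 each, limma adjusted p = 0.0110), so that 13 of 13 fell. The other 4 genes with a copy kept adjusted p-values of 0.00591 to 0.0330 and fell by 0.71 to 0.88. This sum was chosen after the data had been seen.

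**Figure D2:**
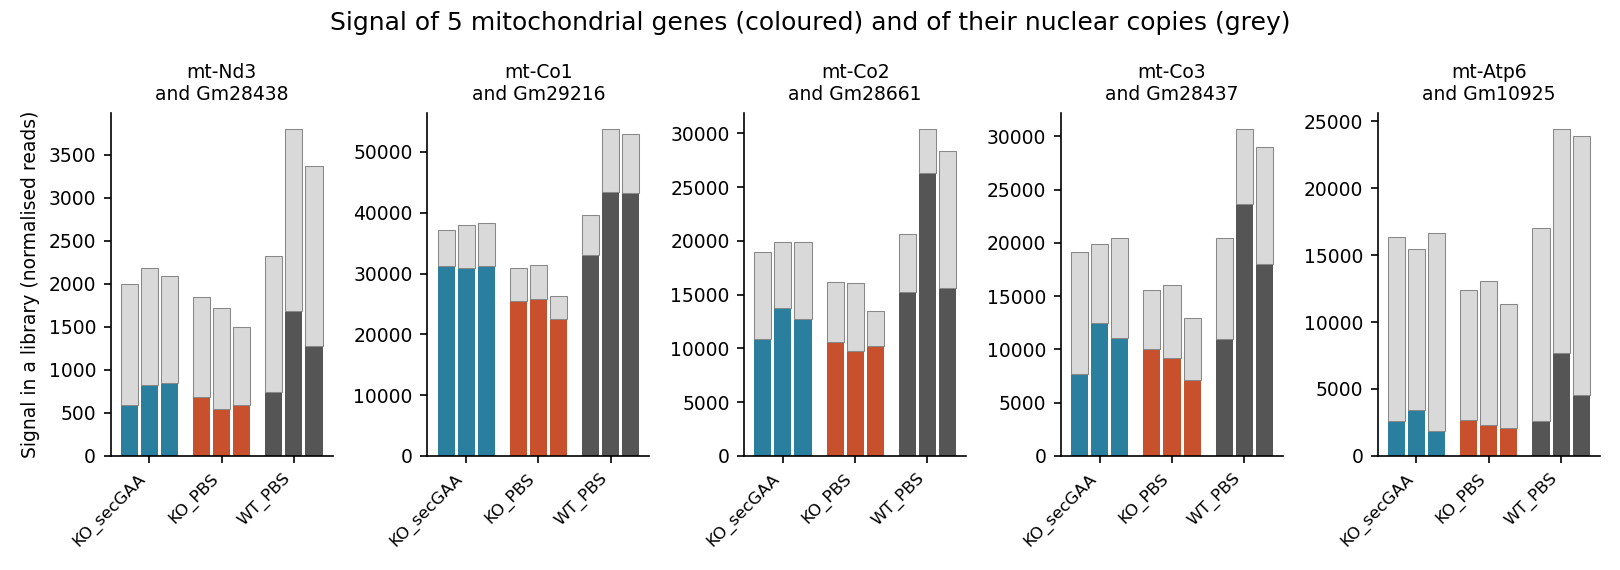
Signal of 5 mitochondrial genes (coloured bars) with the signal of their chromosome 1 copies stacked on top (grey), 1 bar per library in the order of replicates. The division of each bar varies between libraries, as from 68.4% to 84.7% on Gm10925 among the WT_PBS libraries, and the whole bars of mt-Nd3, mt-Co3 and mt-Atp6 vary less than their lower parts within every group.

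Of the 82 nuclear members, 21 fell in KO_PBS against WT_PBS, 0 rose and 61 did not pass, where 11.0% of all genes fell. Their median log2 fold change of -0.29 became 0.03 without the authors' scaling factors. Those factors moved the median of all genes by about 0.3: it was 0.01 with them and 0.305 without. Relative to the median of all genes, the nuclear members were at -0.30 with the factors and -0.28 without, and the mitochondrial members at -0.87 and -0.84. The factors shift all genes of a library nearly alike, so these gaps had to stay close and are no check of the result. With quantile normalization the gaps were -0.14 for the nuclear and -0.23 for the mitochondrial members. Without the factors 8 members fell and 7 rose, where 3.96% of all genes fell and 34.1% rose (limma), and the 8 held 7 mitochondrial members: mt-Nd1, mt-Nd2, mt-Nd4, mt-Nd4l, mt-Nd5, mt-Nd6 and mt-Atp8.

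Complex I had 12 of its 36 nuclear members fall, where 11.0% of all genes fell. The matrix arm holds 7 core subunits, among them those that bind FMN and the iron-sulphur clusters and carry electrons from NADH, and 6 of these fell. Ndufs1, the largest of them and a carrier of iron-sulphur clusters, had a signal of 322, 284 and 304 in KO_PBS and 343, 491 and 450 in WT_PBS, a log2 fold change of -0.48 ± 0.13 (SE, n = 3 each, limma adjusted p = 0.0249). The groups did not overlap. Ndufs8 and Ndufv2 fell by 0.49 and 0.36, and Ndufv1, which binds FMN, was at -0.36 with an adjusted p of 0.0904 (limma, n = 3 each). These 4 genes were singled out after their values had been seen.

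Of the other 29 nuclear members of complex I, 6 fell and 23 did not pass. Ndufc1, a small subunit of the membrane arm, had 143, 144 and 130 in KO_PBS and 175, 228 and 222 in WT_PBS, a log2 fold change of -0.57 (limma adjusted p = 0.00743). Ndufc2 fell by 0.37, Ndufs4 by 0.42 and Ndufb4 by 0.59. Ndufb4 shares 36.2% of its windows with Ndufb4c, which held 66.3% to 73.4% of their joint signal over the 9 libraries. With Ndufb4c added, Ndufb4 fell by 0.51 (limma adjusted p = 0.00879). The 23 that did not pass ranged from Ndufa8, at a log2 fold change of -0.40, to Ndufb3, at 0.09.

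The contrast within complex I can be read inside each library, where scaling has no part. The mean log2 signal of the 7 core genes exceeded that of the other 29 by 1.12, 0.94 and 0.99 in KO_secGAA, by 0.85, 0.79 and 0.86 in KO_PBS and by 1.03, 1.04 and 1.09 in WT_PBS. KO_PBS lay below both other groups without overlap, and KO_secGAA overlapped WT_PBS. This difference was noticed in the data and carries no test.

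Complex II, which is also an enzyme of the TCA cycle, is nuclear throughout. Sdha, its flavoprotein, had 543, 573 and 502 in KO_PBS and 689, 765 and 730 in WT_PBS, a log2 fold change of -0.43 ± 0.10 (SE, n = 3 each, limma adjusted p = 0.0109). Sdhc, a membrane anchor, fell by 0.41 (limma adjusted p = 0.0132). Sdhb and Sdhd were at -0.41 and -0.33 and did not pass.

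In complex III, 4 of 9 nuclear members fell, where 11.0% of all genes did. Uqcrc1, a core protein that faces the matrix, had 696, 605 and 579 in KO_PBS and 785, 1069 and 978 in WT_PBS, a log2 fold change of -0.58 ± 0.12 (SE, n = 3 each, limma adjusted p = 0.00881). Uqcrc2, the second core protein, fell by 0.48, Uqcrfs1, the Rieske iron-sulphur protein, by 0.55 and Cyc1, cytochrome c1, by 0.44. The 5 small subunits did not pass and ranged from -0.30 for Uqcrb to 0.06 for Uqcrh.

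In complex IV, 0 of 17 nuclear members passed in limma, where 11.0% of all genes fell and 10.9% rose. Their median log2 fold change was -0.15 and their smallest adjusted p was 0.108 (limma). At an unadjusted p under 0.05 there were 2, where 35.4% of all genes were, and edgeR, DESeq2 and limma voom likewise called 0. The count depended on other choices. Without WT_PBS 1, Cox5a, Cox6a2, Cox7a1 and Ndufa4 fell, where 10.1% of all genes fell. Without the scaling factors Cox7a2l and Cox8a rose, where 34.1% of all genes rose. Those rises are not read as a result about the complex. The 3 mitochondrial members of the same complex all fell. Cox4i1, its most abundant nuclear subunit per kilobase on the mean of all libraries, had 1014, 962 and 772 in KO_PBS and 763, 1181 and 1024 in WT_PBS. The groups overlapped, and the 95% interval of its log2 fold change, -0.10, ran from -0.47 to 0.28.

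In complex V, 3 of 16 nuclear members fell, where 11.0% of all genes did. Atp5s, described below, is among the 3, and so small a count is not read as a result about the complex. Atp5j, coupling factor 6 of the stalk, had 278, 276 and 252 in KO_PBS and 331, 422 and 421 in WT_PBS, a log2 fold change of -0.54 ± 0.11 (SE, n = 3 each, limma adjusted p = 0.00904). Atp5a1, the alpha subunit of the catalytic head, fell by 0.46. Atp5s, which carries a subunit-like name but is not counted as a subunit of the enzyme, fell by 0.45. Atp5b, the beta subunit and the most abundant nuclear member per kilobase, was at -0.27 with an adjusted p of 0.166 (limma, n = 3 each). Atp5g2 shares all of its windows with Gm10175, which held 90.1% to 96.0% of their joint signal, so its level is uncertain.

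**Figure D3:**
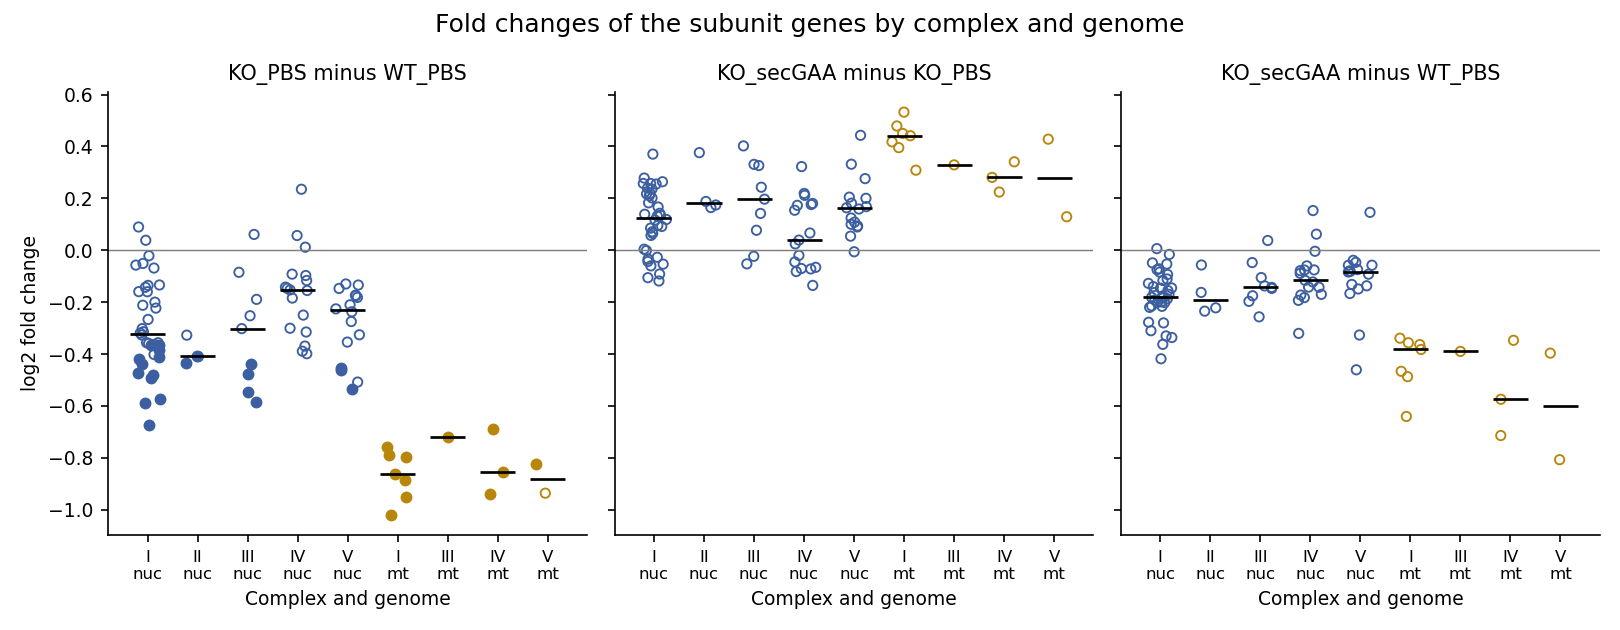
Log2 fold change of each member by complex, for nuclear (nuc, blue) and mitochondrial (mt, gold) genes in the 3 comparisons, with filled circles for adjusted p under 0.05 and bars for medians. Filled circles appear in KO_PBS minus WT_PBS alone, where they are 12 of 13 mitochondrial and 21 of 82 nuclear members and none of the nuclear members of complex IV; without the authors' scaling factors the nuclear median there was 0.03 in place of -0.29.

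Members that fell had longer transcripts. The 21 nuclear members that fell had a median transcript length of 1520 bases, against 659 bases for the other 61. Of members under 600 bases 1 of 28 fell, and of those from 600 to 1000 bases 5 of 26. From 1000 to 2000 bases 10 of 23 fell, and 5 of 5 fell from 2000 bases upward. Over all genes tested with a length, the share that fell was 8.49%, 11.3%, 11.2% and 11.2% in the same ranges. Across the 82 nuclear members, Spearman's rho of length and log2 fold change was -0.46, against -0.02 across 12071 genes. These are correlations across genes, which share libraries and are not independent replicates. Catalytic core subunits tend to be the larger ones, and the part of length as against role was not tested.

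**Figure D4:**
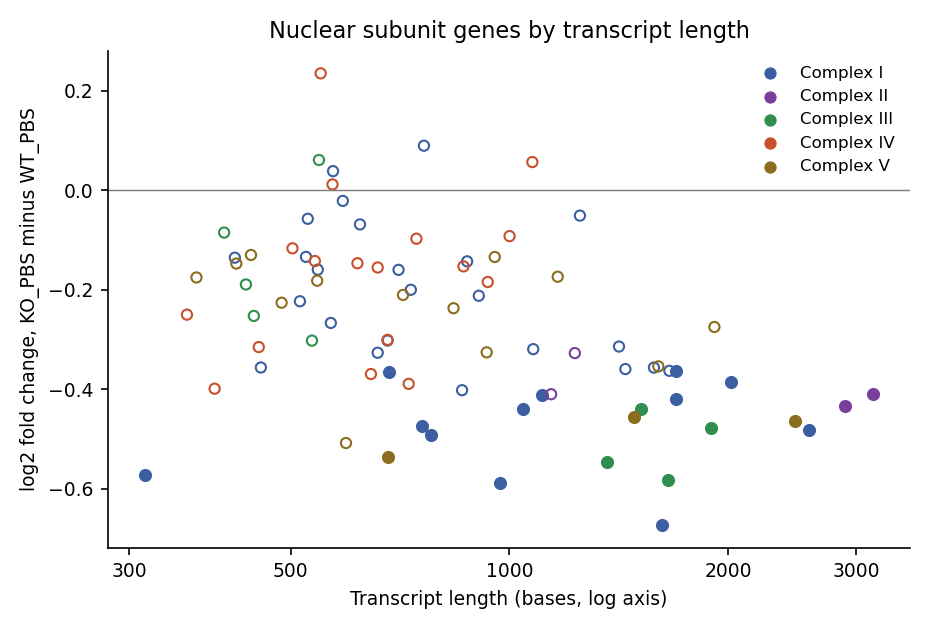
Log2 fold change in KO_PBS minus WT_PBS against transcript length (log axis) for the 82 nuclear members, coloured by complex and filled for adjusted p under 0.05. Filled points lie to the right, with all 5 members of 2000 bases or more filled and 1 of the 28 under 600 bases; without the authors' scaling factors the median of these members was 0.03 in place of -0.29.

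The balance of the genomes was also read inside each library. Summed over members, the reads of the mitochondrial genes were 3.91, 3.58 and 3.85 times those of the nuclear genes in KO_secGAA, 3.08, 3.46 and 3.38 times in KO_PBS and 4.52, 4.85 and 4.72 times in WT_PBS. No group overlapped another. The means were 3.78 ± 0.18 in KO_secGAA, 3.31 ± 0.20 in KO_PBS and 4.69 ± 0.17 in WT_PBS (SD, n = 3 each). WT_PBS 1, low in both genomes, kept the wild-type ratio. With the reads of the 5 copies added, the ratio was 5.36, 4.64 and 5.18 in KO_secGAA, 4.01, 4.60 and 4.32 in KO_PBS, and 5.87, 5.90 and 6.30 in WT_PBS, and the groups still did not overlap. As a share of all reads, the mitochondrial members took 11.1% to 11.6% in KO_secGAA, 9.63% to 10.4% in KO_PBS and 11.4% to 16.7% in WT_PBS. The nuclear members took 2.87% to 3.25%, 2.85% to 3.14% and 2.53% to 3.44% in the same groups, which overlapped.

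**Figure D5:**
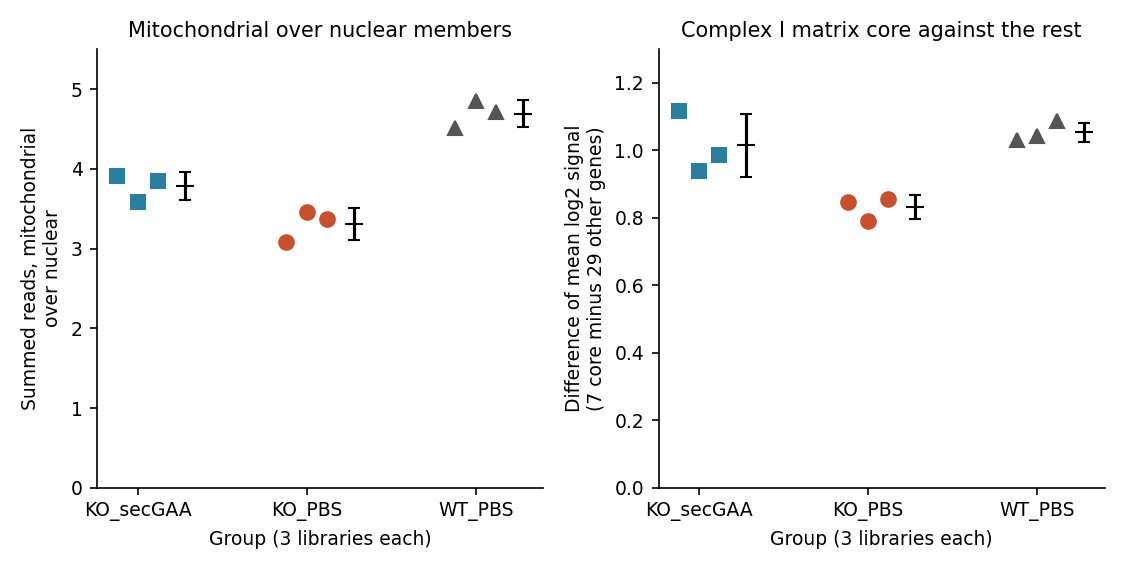
Left, reads of the 13 mitochondrial members over reads of the 82 nuclear members in each library; right, mean log2 signal of the 7 matrix core genes of complex I minus that of its other 29 nuclear genes. Points are libraries and bars the mean ± SD (n = 3 each); the left ratio averaged 3.78 in KO_secGAA, 3.31 in KO_PBS and 4.69 in WT_PBS.

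With the vector, 0 of 95 members passed in KO_secGAA against KO_PBS, where 3.67% of all genes changed, with 2.31% fallen and 1.37% risen (limma). At an unadjusted p under 0.05 there were 15 members, or 15.8%, against 19.3% of all genes. The genomes differed, with 53.8% of the mitochondrial and 9.76% of the nuclear members. Among count tests, edgeR called 1 member (mt-Nd5), limma voom 2 (mt-Nd5 and mt-Nd6) and DESeq2 9, all higher in KO_secGAA, where DESeq2 had 2.67% of all genes rise. The share of all genes is not given for edgeR and limma voom, so their counts cannot be set against it. The median log2 fold change was 0.40 over the 13 mitochondrial members and 0.14 over the 82 nuclear members, against 0.00 over all genes, and without the authors' scaling factors these medians were 0.24 and -0.01. KO_secGAA lay above KO_PBS without overlap in 10 mitochondrial members and 16 nuclear members, and 11.7% of all genes did so.

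Among single members, mt-Nd6 had 2291, 2363 and 2292 in KO_secGAA, 1678, 1878 and 1454 in KO_PBS, and 2796, 2989 and 3289 in WT_PBS. Its log2 fold change in KO_secGAA against KO_PBS was 0.48, with a 95% interval of 0.21 to 0.75 and a limma adjusted p of 0.0584 (n = 3 each). mt-Nd2 had 8394, 7769 and 8407 in KO_secGAA, which lay between the KO_PBS and WT_PBS values given above, at 0.53 over KO_PBS (limma adjusted p = 0.112). Sdha had 656, 671 and 775 in KO_secGAA, at 0.38 (limma adjusted p = 0.0645), and Atp5j had 357, 404 and 337, at 0.44 (limma adjusted p = 0.0664). Each of these 4 lay above KO_PBS in all 3 libraries. Atp5s had 13.0, 10.5 and 13.1 in KO_secGAA and 11.7, 11.7 and 13.3 in KO_PBS, at -0.01 with a 95% interval of -0.26 to 0.25.

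Against wild type, 0 of 95 members passed in KO_secGAA against WT_PBS, where 3.72% of all genes changed, with 1.89% fallen and 1.83% risen (limma). At an unadjusted p under 0.05 there were 18, or 18.9%, against 21.5% of all genes. The genomes differed, with 76.9% of the mitochondrial and 9.76% of the nuclear members. edgeR and limma voom called 0, and DESeq2 called 14, all lower in KO_secGAA, where it had 4.09% of all genes fall. The median log2 fold change was -0.40 over the mitochondrial members and -0.14 over the nuclear members, and without the authors' scaling factors these medians were -0.23 and 0.02. KO_secGAA lay below WT_PBS without overlap in 10 of 13 mitochondrial members and 4 of 82 nuclear members, where 13.3% of all genes did so. The largest log2 fold changes were -0.81 for mt-Atp6 and -0.71 for mt-Co3, both with a counted copy, and -0.46 for Atp5s among nuclear members. With the copies added, mt-Atp6 and mt-Co3 were both at -0.41, and mt-Nd3 was at -0.57. The comparisons share their libraries, so their fold changes are not independent.

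How many members passed depended on single libraries. Without WT_PBS 1, 53 members fell in KO_PBS against WT_PBS in place of 33, and these held 13 of 13 mitochondrial and 40 of 82 nuclear members, where 10.1% of all genes fell. Without WT_PBS 2 the count was 17, of which 9 were mitochondrial, and without WT_PBS 3 it was 13, of which 7 were. Without KO_PBS 1, 2 or 3 it was 28, 15 and 16, and these held 10, 8 and 7 mitochondrial members. Here the share of all genes is given only beside the 53, so the other counts cannot be set against their own share. The median of the mitochondrial members, less that of all genes, stayed between -0.998 and -0.701 over these 6 fits, and that of the nuclear members between -0.412 and -0.202. Without WT_PBS 1, 9 members rose in KO_secGAA against KO_PBS and 5 fell in KO_secGAA against WT_PBS. The 3 groups share one estimate of spread, and in the second of these comparisons the wild-type mean changes too.

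Cytochrome oxidase has subunits with a muscle isoform and an isoform found in most tissues. Cox6a2, the muscle isoform, exceeded Cox6a1 by 22.7, 21.1 and 27.4 times in KO_secGAA, 18.1, 18.6 and 21.7 times in KO_PBS and 19.0, 24.2 and 30.3 times in WT_PBS. The KO_PBS and WT_PBS values overlapped, and the difference of the log2 ratios was -0.31 (exact permutation test, 2-sided, p = 0.2). It was -0.48 without WT_PBS 1, where the groups no longer overlapped, and -0.15 without WT_PBS 3. Cox7a1 exceeded Cox7a2 by 1.64, 1.82 and 1.81 times in KO_secGAA, 1.41, 1.58 and 1.34 times in KO_PBS and 1.61, 1.82 and 1.70 times in WT_PBS. Here KO_PBS lay below both other groups, by -0.24 on the log2 scale against WT_PBS, and KO_secGAA lay above KO_PBS by 0.28 (exact permutation test, p = 0.1 each).

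Cox8b exceeded Cox8a by 10.2, 11.8 and 14.2 times in KO_secGAA, 12.3, 11.9 and 11.4 times in KO_PBS and 12.4, 18.4 and 20.2 times in WT_PBS. The log2 ratio differed by -0.49 in KO_PBS against WT_PBS (exact permutation test, p = 0.1) and by 0.01 in KO_secGAA against KO_PBS (p = 1). KO_PBS 1 and WT_PBS 1 were nearly equal, at 12.345 and 12.350 times. With 2 in place of 0.5 added to each signal, KO_PBS differed from WT_PBS by -0.47 (exact permutation test, p = 0.2). Cox4i2, the isoform known from lung, had a low signal of 1.41 to 1.53 in KO_secGAA, 0.620 to 1.69 in KO_PBS and 1.44 to 1.89 in WT_PBS. Over 4 pairs and 3 comparisons, every p adjusted by Benjamini-Hochberg was 0.4 or above, and 3 libraries against 3 cannot go below an unadjusted 0.1. Cox6b2 was not analysed here. Ndufa4, once placed in complex I and now in complex IV, was at a log2 fold change of -0.32 in KO_PBS against WT_PBS (limma adjusted p = 0.108, n = 3 each), and its isoform Ndufa4l2 was at -0.18 with a signal of at most 6.31 in every library.

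Part of the genes that build the complexes also fell in KO_PBS against WT_PBS, where 11.0% of all genes fell and 10.9% rose. Counts of the lists below are small, and those near these shares are not read as a change of the list. Of 17 complex I assembly factors 7 fell in KO_PBS against WT_PBS and 0 rose, with a median log2 fold change of -0.34. Ndufaf5, which modifies Ndufs7, had 28.2, 23.6 and 22.5 in KO_PBS and 37.6, 48.0 and 47.9 in WT_PBS, a log2 fold change of -0.83 (limma adjusted p = 0.00132). Ndufaf6 and Tmem126b fell by 0.80 and 0.43. Among 10 factors of complexes II and III, 3 fell: Bcs1l, which inserts the Rieske protein, by 0.57, Uqcc1 by 0.48 and Sdhaf3 by 0.39. Among 23 factors of complex IV, 6 fell. Taco1, which activates translation of mt-Co1, had 20.5, 16.4 and 23.9 in KO_PBS and 33.5, 46.9 and 42.4 in WT_PBS, at -1.0 on the log2 scale. Coa7 and Higd2a fell by 0.81 and 0.50.

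Atpif1, the inhibitor of ATP synthase hydrolysis, was measured beside its target. Its signal was 23.7, 23.2 and 20.2 in KO_secGAA, 30.6, 31.8 and 31.9 in KO_PBS and 13.5, 14.4 and 14.5 in WT_PBS, and no group overlapped another. It rose in KO_PBS against WT_PBS by 1.13 ± 0.09 (SE, limma adjusted p = 6.48e-05), fell in KO_secGAA against KO_PBS by 0.48 (adjusted p = 0.0253) and stayed above WT_PBS by 0.64 (adjusted p = 0.00849). Of the 5 genes in its list, Tmem70 and Fmc1, assembly factors of ATP synthase, were among the 3 that fell in KO_PBS against WT_PBS, by 0.40 and 0.49.

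In the list of cytochrome c and coenzyme Q synthesis, 4 of 14 fell and 1 rose in KO_PBS against WT_PBS. Of all genes 11.0% fell and 10.9% rose. Cycs, cytochrome c itself, had 132, 106 and 107 in KO_PBS and 146, 195 and 180 in WT_PBS, at -0.59 (limma adjusted p = 0.0156). Coq9 and Pdss2 fell by 0.65 and 0.61, and Coq8b rose by 1.0. Of 13 carriers 7 fell and 1 rose. Slc25a4, the ADP/ATP carrier of muscle, had 3493, 3298 and 2912 in KO_PBS and 4493, 5827 and 5575 in WT_PBS, at -0.71, and Vdac3 fell by 0.56. Ucp2, an uncoupling protein, rose by 0.96. In KO_secGAA against KO_PBS, Vdac3 rose by 0.41 (limma adjusted p = 0.0308) and Coq5 of coenzyme Q synthesis by 0.48 (adjusted p = 0.0411). Coq5 was named after its value had been seen.

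Of 30 genes that maintain and read mitochondrial DNA, 5 fell and 0 rose in KO_PBS against WT_PBS, with a median log2 fold change of -0.16. Of all genes 11.0% fell and 10.9% rose. Polrmt, the mitochondrial RNA polymerase, had 23.3, 21.8 and 21.7 in KO_PBS and 31.2, 27.6 and 28.8 in WT_PBS, at -0.38 (limma adjusted p = 0.0111). Top1mt and Fastkd2 fell by 0.63 and 0.59. Tfam, which packages mitochondrial DNA, was at -0.26 (adjusted p = 0.166). Of 18 regulators 1 fell and 1 rose, no more than those shares. Prkag3, an AMPK subunit of fast muscle, fell by 0.96, and Esrrg, an orphan nuclear receptor that drives oxidative genes, rose by 1.56. Esrrg had 28.9, 31.0 and 22.8 in KO_PBS and 5.86, 15.1 and 8.11 in WT_PBS (limma adjusted p = 0.00921). Ppargc1a, Esrra and Nrf1 were at -0.19, -0.33 and -0.17 and did not pass, and KO_PBS 1 had the highest Ppargc1a of all libraries, 53.0 against at most 28.5 elsewhere.

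Markers of fibres and other cells moved in the same libraries. In KO_PBS against WT_PBS, 11.0% of all genes fell and 10.9% rose. Of 11 skeletal muscle markers 6 fell and 1 rose in KO_PBS against WT_PBS, with a median log2 fold change of -0.44. Of 12 fast fibre markers 7 fell in KO_PBS against WT_PBS, with a summed signal of 143726 to 161350 in KO_secGAA, 113261 to 122530 in KO_PBS and 149979 to 189850 in WT_PBS. Tnnt3, Mylpf, Actn3, Atp2a1 and Pvalb stand in both the skeletal muscle and the fast fibre list, so these counts are not independent. Of 10 slow fibre markers 7 rose, with 390 to 1201 in KO_secGAA, 688 to 2793 in KO_PBS and 88.8 to 629 in WT_PBS. Of 15 macrophage markers 4 rose, with 162 to 331, 348 to 471 and 117 to 189 in the same groups, and 5 of 12 endothelial markers fell. Of 9 fibroblast markers 1 fell and 1 rose, near the shares of all genes, as was so for 9 markers of smooth muscle and pericytes (limma). The summed signal of 9 adipocyte markers was 344 to 1011 in KO_secGAA, 227 to 476 in KO_PBS and 341 to 1606 in WT_PBS, and that of 5 erythroid markers 88.1 to 448, 33.0 to 176 and 171 to 452 in the same groups. None of the markers measured was at or under the floor in every library. The part of these shifts in the members' changes was not tested.

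The promoters were searched for 3 motifs of factors known to act on respiratory genes, on both strands, in the 300 bases from 250 before to 50 after the start (RefSeq, GRCm38.p6). Of the 82 nuclear members 65 matched by symbol. The NRF1 motif CGCATGCG was in 8 of the 65, or 12.3%, against 1.91% of 27025 promoters of the same length. The ETS motif CCGGAAG, read by GABP, was in 15, or 23.1%, against 9.12%. The ERR motif AAGGTCA, read by the estrogen-related receptors, was in 8, or 12.3%, against 4.66%. Among the 14 matched members that fell, 1, 2 and 1 held these motifs, against 7, 13 and 7 of the 51 that did not. The promoter of 1 fallen member is shown for each motif, with the motif in capitals: Uqcrc1 for NRF1 (chr9:108936398-108936697, plus strand), Ndufs3 for ETS on both strands (chr2:90904672-90904971, minus strand) and Ndufb4 for ERR (chr16:37654319-37654618, minus strand). A match is a description of the letters and not a bound site.
Uqcrc1: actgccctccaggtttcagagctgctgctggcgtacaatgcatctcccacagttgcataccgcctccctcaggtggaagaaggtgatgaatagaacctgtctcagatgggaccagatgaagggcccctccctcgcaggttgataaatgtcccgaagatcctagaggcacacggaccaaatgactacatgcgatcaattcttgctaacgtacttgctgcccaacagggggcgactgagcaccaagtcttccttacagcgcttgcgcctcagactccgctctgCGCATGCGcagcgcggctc
Ndufs3: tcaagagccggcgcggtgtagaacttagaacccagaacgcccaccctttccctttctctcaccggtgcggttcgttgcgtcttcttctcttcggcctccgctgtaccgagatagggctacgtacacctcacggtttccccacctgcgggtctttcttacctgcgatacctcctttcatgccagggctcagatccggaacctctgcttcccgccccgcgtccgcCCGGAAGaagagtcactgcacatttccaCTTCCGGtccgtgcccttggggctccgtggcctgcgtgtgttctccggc
Ndufb4: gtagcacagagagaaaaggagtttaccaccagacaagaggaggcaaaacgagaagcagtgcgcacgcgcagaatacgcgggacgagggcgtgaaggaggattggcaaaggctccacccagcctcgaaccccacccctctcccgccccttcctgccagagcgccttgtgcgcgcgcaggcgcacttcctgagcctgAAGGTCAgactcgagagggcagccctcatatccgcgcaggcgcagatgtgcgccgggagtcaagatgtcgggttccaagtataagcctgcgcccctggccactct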

How the data were processed

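The deposited table gives 1 signal per gene and library. Per the submitters' processing notes, the build was GRCm38 and the tools named are CASAVA, cutadapt, RSEM, limma and edgeR, while their versions and roles and the strand counted are not stated there. Each deposited signal was (reads + 0.5) divided by a scaled library size: all 118044 values gave whole reads within a relative tolerance of 1e-06, and edgeR's TMM scaling rebuilt the signal from them within 9.2e-08. Libraries are 61-base single-end reads, per the labels' protocols. Of the table's rows, 83 carry no gene name.

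Here log2(signal + 0.5) was fitted with limma 3.58.1 (R 4.3.3), 3 group means over all 9 libraries, trended empirical Bayes, and Benjamini-Hochberg adjustment over 13089 genes. The filter removed 27 genes. Fold changes on this scale understate those of low genes. The script was tested on simulated data. edgeR 4.0.16, DESeq2 1.42.0 and limma voom on the recovered reads were alternatives, with other scalings, filters and libraries left out in turn. The design gives the groups replicate numbers by accession order only, so nothing pairs libraries. Transcript lengths and copies came from GENCODE M21. A copy is a gene whose transcript shares an exact window of 61 bases.

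The members and lists were chosen with earlier results of these data known. Named genes are all mitochondrial members, up to 5 per nuclear complex by smallest p among those that passed, tissue isoforms, the 3 most abundant per kilobase, up to 3 per pathway list, Ppargc1a, Esrra, Tfam, Nrf1, Cycs and Gaa. Others that illustrate a range, an overlap or a count were named after their values were seen. The values of 1 member are not reported here; it stays in the counts.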

Additional observations from a re-analysis of the deposited data

How the results depend on the processing

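In KO_PBS against WT_PBS, 33 members fell and 0 rose. Without the authors' scaling factors 8 fell and 7 rose. Scaled by nuclear genes, with the chromosome 1 copies counted among them, 8 fell and 1 rose, and with quantile normalization 18 fell. Of the mitochondrial members 12 fell, against 7, 7 and 3 under these scalings. Of all genes 11.0% fell and 10.9% rose with the factors, and 3.96% fell and 34.1% rose without. No such share is given for the other scalings, for edgeR, limma voom or the filter at 10, or for most fits with a library left out. Without the factors the nuclear median was 0.029 in KO_PBS against WT_PBS, -0.013 in KO_secGAA against KO_PBS and 0.020 in KO_secGAA against WT_PBS, each the opposite sign. Quantile normalization, which gives the highest genes the same values in every library, turned mt-Nd4 to 0.025 and Atp5a1 to 0.043 in KO_PBS against WT_PBS. Leaving out 1 library at a time gave 13 to 53 fallen in that comparison, 0 to 9 risen in KO_secGAA against KO_PBS and 0 to 5 fallen in KO_secGAA against WT_PBS. In KO_secGAA against KO_PBS, 0 rose in limma, 1 in edgeR, 2 in limma voom, 3 with a filter at 10 and 9 in DESeq2. In KO_secGAA against WT_PBS, 0 fell in limma, 1 with a filter at 10 and 14 in DESeq2. DESeq2 had 2.67% of all genes rise in the first of these comparisons and 4.09% fall in the second. Other pseudocounts, no filter, a fit of 2 groups, no trend and added copies kept the 3 comparisons' counts within 1.5 times. The isoform differences moved by less than the larger of both groups' SDs over all libraries in every alternative. In KO_PBS against WT_PBS, that of Cox8b over Cox8a was -0.49, and -0.70 without WT_PBS 1; in KO_secGAA against KO_PBS, that of Cox4i2 over Cox4i1 was 0.26, and -0.11 without KO_PBS 1. The causes of these differences were not tested. No paired analysis was possible because the labels give no replicate numbers.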
